A study of Mus musculus with 6 samples.

Results

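The RNA of erythroid regulators and membrane genes was followed in CD34-/LSK hematopoietic stem cells (HSCs) with and without CD74. The set holds 9 genes, chosen by symbol from the 19846 genes of the expression table, with the row of the highest mean taken for each symbol. They are the transcription regulators Gata1, Klf1, Gfi1b and Zfpm1, the erythropoietin receptor gene Epor, the transferrin receptor gene Tfrc, the anion exchanger gene Slc4a1 and the carbonic anhydrase genes Car1 and Car2. Libraries came from 1000 sorted bone marrow cells each, 3 from untreated WT mice and 3 from untreated CD74-/- mice, all C57BL/6 and 6 to 8 weeks old by the study's methods. CD74-/- mice lack the receptor in every cell, so the host marrow lacks it too. With 3 libraries and 3 mice named for each genotype, but no library tied to a mouse, p values measure the spread between these libraries.

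Red cells form from stem cells through progenitors in which GATA1 and its cofactor FOG1, the product of Zfpm1, switch on the erythroid program. KLF1 then acts on globin, membrane and heme genes, while GFI1B represses genes of other lineages. Erythropoietin keeps these progenitors alive through its receptor, the transferrin receptor brings in the iron for heme, and band 3 (Slc4a1) and the carbonic anhydrases serve carbon dioxide transport. Stem cells come before this program, and an LSK gate leaves out cells with the erythroid surface antigen Ter119.

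Reads counted in genes ranged from 14390534 to 16198678 per library. Values are normalized counts, which are reads divided by a size factor of the library, and 1 read is worth 0.896 to 1.07 of them. Cd74 checked the labels, with 2459 to 3287 normalized counts in WT and 46.0 to 72.8 in CD74-/- libraries (log2 fold change -5.53, adjusted p = 6.2e-05 from limma). The sorted cells expressed the stem cell markers, of which all 16 were measured and none was at 0 in a genotype. Their summed level was 56550 to 64510 in WT and 62320 to 72530 in CD74-/-, and Ly6a, the gene of Sca-1, had 9924 to 14074 normalized counts. The median log2 fold change of the 16 was -0.19, and 11 of them were negative. Without Cd34, Cd48 and Flt3, which mark progenitors rather than HSCs, the sums were 42750 to 53510 in WT. They were then 35120, 41570 and 57220 in CD74-/- replicates 1, 2 and 3, so that replicates 1 and 2 lay below every WT library. Cd34 RNA was present in spite of the CD34- gate, at 5240 to 6834 in WT and 7097 to 11830 in CD74-/- libraries. WT replicate 1 stood apart. It had the highest value of all 6 libraries for 4 of the 9 genes and a summed level of 11 neutrophil markers of 976500, against 157600 to 231800 in the other WT libraries and 31360 to 144900 in CD74-/-.

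All 9 genes were detected in both genotypes and all passed the filter on the mean, 10 normalized counts or more, which left 14892 genes to test. In limma, 0 of the 9 reached an adjusted p under 0.05 over the whole table. It called 7 genes lower in CD74-/-, 0.0470% of those tested, and 6 genes higher, 0.0403%. At an unadjusted p under 0.05, limma had 2 of the 9 lower, Car1 and Zfpm1, and none higher, against 4.60% and 3.14% of all tested genes. For Car1 and Zfpm1 alone did every CD74-/- library lie below every WT library, where 7.47% of all tested genes did, and no member lay above in every library, as 5.35% did. DESeq2 on the recovered reads called Car1 lower and no member higher, against 0.591% of genes called lower and 0.329% called higher. EdgeR and limma-voom called none of the 9. Of the 9 log2 fold changes (CD74-/- minus WT), 6 were negative and 3 positive, with a median of -0.90. Over all tested genes the median was -0.03 and 52.3% were negative. The median of the 9 was -0.37 with WT replicate 1 left out and -0.25 with CD74-/- replicate 3 left out. Those lower at an unadjusted p under 0.05 numbered 4 with CD74-/- replicate 1 left out and 1 with CD74-/- replicate 2 left out, where 4.5% and 3.7% of all genes tested in those fits were.

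**Figure D1:**
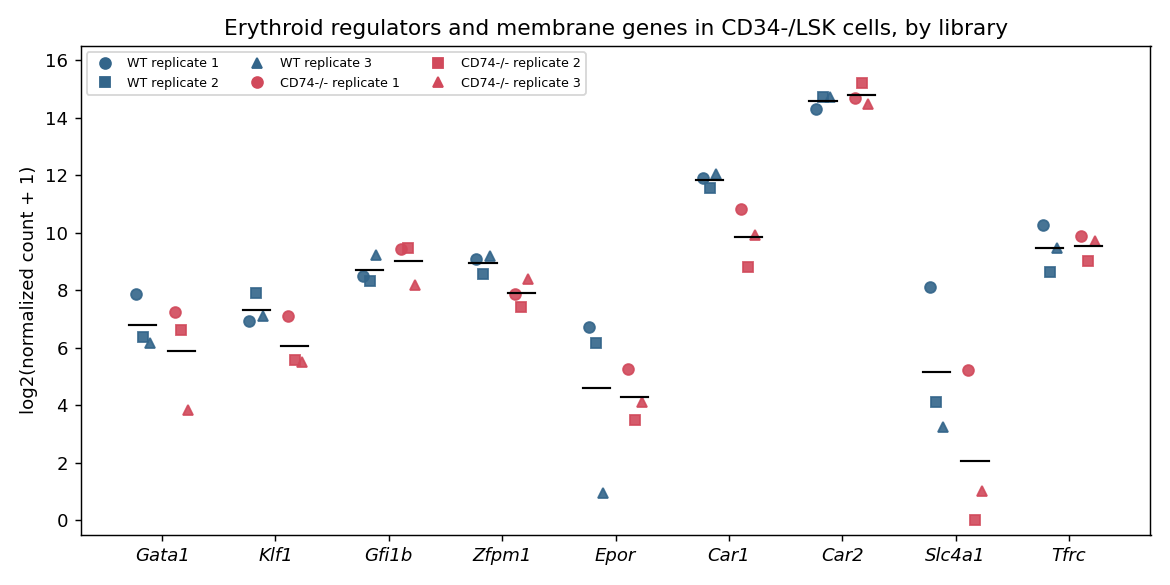
Normalized counts of the 9 genes in each library, as log2(normalized count + 1) on the vertical axis; symbols are the replicates of WT (blue) and CD74-/- (red), and bars are the means of the log2 values. The genotypes are apart for Zfpm1 and Car1 and overlap for the other 7 genes, and Car2 is the most abundant of the 9 in every library.

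The carbonic anhydrase genes Car1 and Car2 had the highest levels of the 9, and of these Car1 was lower in CD74-/- HSCs. Both enzymes convert carbon dioxide and water to bicarbonate, and Car1 is the form that accumulates in red cells while Car2 is made in many tissues. Car1 (ENSMUSG00000027556) lies on chromosome 3 of GRCm38 at chr3:14766216-14808368 on the minus strand. WT libraries held 3823, 3023 and 4256 normalized counts of it, and CD74-/- libraries 1826, 449 and 962. The lowest WT library thus lay above the highest CD74-/- library, which was replicate 1. The means were 3700 ± 625 (SD, n = 3) and 1079 ± 696 (SD, n = 3), a ratio of 0.292. This is a log2 fold change of -1.99 with a standard error of 0.427 and a 95% interval of -2.94 to -1.04 (limma, unadjusted p = 0.000869, adjusted p = 0.269). Its two-sided exact permutation test gave p = 0.1, the smallest that 3 libraries against 3 allow. DESeq2 gave -1.78 with an adjusted p of 0.00305. Without CD74-/- replicate 1, limma gave -2.48 with an adjusted p of 0.0179 and the CD74-/- mean was 705.7. Across the alternatives, its log2 fold change ran from -2.48 to -1.47 and the adjusted p of limma, edgeR and DESeq2 from 0.00305 to 0.963. Of the 50-base words in Car1 transcripts, 13.4% are shared with the pseudogene Gm5843, which was not analysed here, while the other 8 genes share none with another gene.

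Car2 (ENSMUSG00000027562; chr3:14886273-14900770, plus strand) did not pass the test and had overlapping genotypes. Counts were 20042, 27309 and 27332 in WT replicates 1, 2 and 3, and 26111, 37613 and 22933 in those of CD74-/-. CD74-/- replicate 2 was the highest of the 6 and WT replicate 1 the lowest. Its log2 fold change was 0.20 with a 95% interval of -0.31 to 0.71 (adjusted p = 0.844 from limma), so that the interval holds neither a doubling nor a loss of 50%. Without CD74-/- replicate 2 it was -0.01. The ratio of Car1 to Car2, looked at after the values had been seen, was 0.191, 0.111 and 0.156 for the WT replicates, compared to 0.0700, 0.0119 and 0.0420 for those of CD74-/-.

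Whether reads of the pair can be told apart was looked at in the coding sequences, which are shown because the genes differ in their values and belong to 1 family. Below are the first 90 coding bases of a transcript of each (GENCODE vM21 on GRCm38, transcripts Car1-203 and Car2-201), with the bases that are equal in the alignment of the pair in capitals.
Car1: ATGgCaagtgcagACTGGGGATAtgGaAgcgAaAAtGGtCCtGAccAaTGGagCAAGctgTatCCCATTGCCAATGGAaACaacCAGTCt
Car2: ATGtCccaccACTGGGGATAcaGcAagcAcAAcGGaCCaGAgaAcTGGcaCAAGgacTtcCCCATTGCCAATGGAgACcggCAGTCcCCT
The coding sequences are 786 and 783 bases long and equal at 63.4% of 778 aligned positions. Their longest shared run was 15 bases, shorter than the 50-base words used to look for shared reads.

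Car1 and Car2 stand in a cluster of 4 carbonic anhydrase genes that spans 259 kb of chromosome 3, in the order Car13, Car1, Car3, Car2, with 77.9 kb between Car1 and Car2. Car13, which encodes a cytosolic enzyme, was higher in every CD74-/- library than in every WT library. WT libraries held 81.3, 145 and 34.1 normalized counts and CD74-/- libraries 218, 298 and 299, with a log2 fold change of 1.85 and a 95% interval of 0.61 to 3.08 (adjusted p = 0.517 from limma). Car3, at 281, 528 and 281 in WT compared to 483, 713 and 256 in CD74-/-, had a log2 fold change of 0.36 (limma adjusted p = 0.847). Of 14 other carbonic anhydrase genes looked for, 8 were measured and 7 tested, and none was called by limma, edgeR or DESeq2. At an unadjusted limma p under 0.05, 1 was higher (Car13), where 3.14% of all tested genes were. The median log2 fold change of the 7 was 0.40, and 0.21 to 0.76 with a library left out. Car5b, a mitochondrial form, had a log2 fold change of 0.40 as well (adjusted p = 0.890 from limma).

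**Figure D2:**
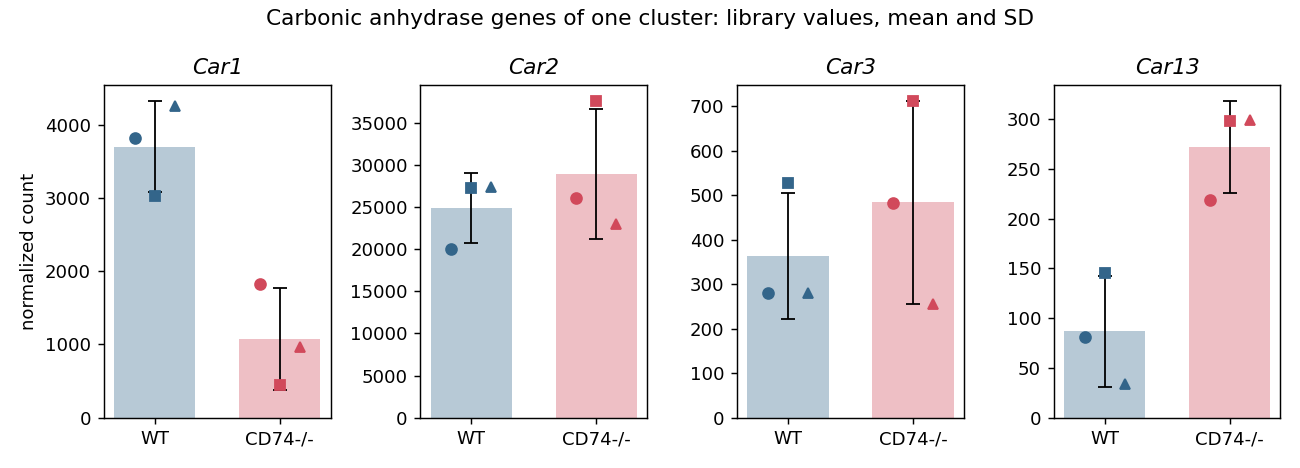
Normalized counts of the 4 carbonic anhydrase genes of the chromosome 3 cluster, each on its own vertical axis from 0; bars are means, error bars are SD of 3 libraries and symbols are replicates 1 (circle), 2 (square) and 3 (triangle). Car1 is lower and Car13 higher in every CD74-/- library, while Car2 and Car3 overlap.

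Among the transcription regulators, Zfpm1 was lower in each CD74-/- library. FOG1, its product, binds GATA1 and GATA2 and is needed for red cells and megakaryocytes. Zfpm1 (ENSMUSG00000049577; chr8:122282141-122337251, plus strand) was measured at 549, 378 and 589 normalized counts in WT, compared to 233, 171 and 332 in CD74-/- libraries. The nearest libraries were WT replicate 2 and CD74-/- replicate 3. The means were 505.5 ± 112 (SD, n = 3) and 245 ± 81.1 (SD, n = 3), a ratio of 0.485. On the log2 scale the difference was -1.07 with a standard error of 0.365 and a 95% interval of -1.88 to -0.25 (limma, unadjusted p = 0.0151, adjusted p = 0.563). An exact permutation test gave p = 0.1. Across the alternatives it stayed between -1.31 and -0.83, with an adjusted p of limma, edgeR and DESeq2 of 0.114 to 0.963.

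Klf1 (ENSMUSG00000054191; chr8:84901928-84905291, plus strand), the regulator of adult globin and red cell membrane genes, had 122, 237 and 135 normalized counts in WT. In CD74-/- libraries it had 137, 46.6 and 44.1. CD74-/- replicates 2 and 3 lay below all WT libraries, while replicate 1 lay above WT replicates 1 and 3. Klf1 thus had a log2 fold change of -1.25 with a 95% interval of -2.56 to 0.05 (limma adjusted p = 0.655, exact permutation p = 0.3).

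Gata1 (ENSMUSG00000031162; chrX:7959260-7978071, minus strand), which drives erythroid and megakaryocytic genes, varied more within a genotype than between them. In WT it had 232, 82.4 and 71.0 normalized counts, compared to 149.7, 98.35 and 13.3 in CD74-/- libraries. WT replicate 1 was the highest library and CD74-/- replicate 3 the lowest. Its log2 fold change of -0.90, with a 95% interval of -2.87 to 1.06 (limma adjusted p = 0.804, exact permutation p = 0.6), turned to 0.13 when CD74-/- replicate 3 was left out.

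Gfi1b (ENSMUSG00000026815; chr2:28609450-28621982, minus strand), a repressor that erythroid and megakaryocytic cells need, was the regulator with a positive difference. In WT it had 364, 322 and 604 normalized counts, compared to 684, 711 and 289.99 in CD74-/- libraries. CD74-/- replicates 1 and 2 were above all WT libraries and replicate 3 was below them. Limma gave a log2 fold change of 0.33 with a 95% interval of -0.60 to 1.26 (adjusted p = 0.853, exact permutation p = 0.6).

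The promoters of Zfpm1, Klf1 and Epor are shown to set Zfpm1, whose genotypes were apart, beside Klf1 and Epor, which are textbook targets of GATA1. They are the 250 bases before the RefSeq start (RefSeq, GRCm38.p6), written on the strand of the gene, with GATA sites and CACC boxes in capitals.
Zfpm1, chr8:122281891-122282140: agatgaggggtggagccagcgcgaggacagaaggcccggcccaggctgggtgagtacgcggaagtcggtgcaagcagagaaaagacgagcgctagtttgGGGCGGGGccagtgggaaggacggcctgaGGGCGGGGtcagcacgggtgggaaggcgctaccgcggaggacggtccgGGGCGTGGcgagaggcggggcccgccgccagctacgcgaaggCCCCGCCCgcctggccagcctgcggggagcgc
Klf1, chr8:84901732-84901981: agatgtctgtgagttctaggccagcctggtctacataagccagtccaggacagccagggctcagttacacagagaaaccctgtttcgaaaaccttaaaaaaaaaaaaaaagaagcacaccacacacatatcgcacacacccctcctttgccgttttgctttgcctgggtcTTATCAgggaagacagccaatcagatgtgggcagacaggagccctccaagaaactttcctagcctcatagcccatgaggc
Epor, chr9:21963577-21963826: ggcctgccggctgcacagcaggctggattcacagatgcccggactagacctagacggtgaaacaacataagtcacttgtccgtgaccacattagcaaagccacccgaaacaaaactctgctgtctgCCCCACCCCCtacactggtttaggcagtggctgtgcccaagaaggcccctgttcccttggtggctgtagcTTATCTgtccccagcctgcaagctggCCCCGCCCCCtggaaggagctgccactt
The GATA sites searched were AGATAA and TGATAA as well as AGATAG and also TGATAG. The CACC box was CCNCNCCC, and both strands were read. Klf1 held 1 GATA site, 80 bases before its start, and no CACC box. Epor held 1 GATA site, 54 bases before its start, and 4 CACC boxes, of which some overlap each other. Zfpm1 held no GATA site and 4 CACC boxes. Gfi1b held 1 GATA site and 2 CACC boxes, and Gata1 and Tfrc held CACC boxes only. RefSeq promoters were matched for 6 of the 9 genes. Of 32851 promoters searched in the same window, 26.5% held a GATA site and 45.9% a CACC box, so that a match describes the letters and is no evidence of a bound factor.

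Epor (ENSMUSG00000006235; chr9:21958897-21963506, minus strand) was among the scarcest of the 9 genes and was unequal among WT libraries. WT libraries held 105, 70.8 and 0.95 normalized counts, the last of which is 1 read, and CD74-/- libraries held 37.2, 10.1 and 16.4. WT replicates 1 and 2 were the highest of the 6 and WT replicate 3 the lowest. Its log2 fold change was -0.33 with a 95% interval of -3.54 to 2.87 (adjusted p = 0.965 from limma). EdgeR gave -1.44 and DESeq2 -1.47 (adjusted p = 0.815 and 0.820), and the ratio of the means was 0.361. Leaving out WT replicate 1 turned its direction (0.72), as did leaving out WT replicate 2 (0.44) or CD74-/- replicate 2 (0.07). With WT replicate 3 left out it was -2.16.

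The receptor's signalling genes gave no call. Of 16 genes listed for erythropoietin signalling, 15 were tested and none was called by limma, edgeR or DESeq2. None reached an unadjusted limma p under 0.05. There were 14 negative values, where 52.3% of all tested genes were negative, and a median log2 fold change of -0.34. In 1 of the 15, the second transferrin receptor gene Tfr2, every CD74-/- library lay below every WT library. This is 6.7%, near the 7.47% of all tested genes. With CD74-/- replicate 3 left out, the median of the list was -0.45. In that fit 6 of the 15 were lower in every CD74-/- library, against 18.8% of all genes tested. At an unadjusted limma p under 0.05, 4 were then lower, against 9.0%. The adaptor gene Sh2b3, which restrains the kinase JAK2, was at -0.58 (adjusted p = 0.688 from limma), the kinase gene Pim1 at -0.50 (adjusted p = 0.769) and Jak2 itself at 0.11 (adjusted p = 0.936).

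Slc4a1 and Tfrc, which with Epor encode the membrane proteins of the set, differed in their spread. Slc4a1 (ENSMUSG00000006574; chr11:102348824-102366203, minus strand), which encodes the red cell anion exchanger band 3, had 279, 16.1 and 8.51 normalized counts in WT. In CD74-/- libraries it had 36.2, 0 and 1.02, with 1 read behind the last. WT replicate 1 held most of the RNA, and CD74-/- replicate 1 lay above WT replicates 2 and 3. Limma gave a log2 fold change of -3.08 with a 95% interval of -6.88 to 0.72 (adjusted p = 0.688, exact permutation p = 0.3). Without WT replicate 1 it was -1.60, where the ratio of the means was 1.01, and without CD74-/- replicate 1 it was -4.65. With a library at 0 it also moved with the pseudocount, to -3.52 at 0.5 and -2.01 at 5.

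Tfrc (ENSMUSG00000022797; chr16:32608920-32632794, plus strand), which takes up iron-bound transferrin in every dividing cell, had 1240.4, 401 and 716 normalized counts in WT. The CD74-/- libraries had 936, 523 and 835, all within the WT range. Limma gave a log2 fold change of 0.07 with a 95% interval of -0.85 to 0.98 (adjusted p = 0.976, exact permutation p = 1). Its sign was negative in edgeR (-0.02), in DESeq2 (-0.04) and with WT replicate 2 (-0.34), CD74-/- replicate 1 (-0.10) or CD74-/- replicate 3 (-0.02) left out. Of 16 other genes of iron uptake and storage, none was called by these tools, reached an unadjusted limma p under 0.05 or had genotypes apart, with a median of -0.12. The iron exporter gene Slc40a1 was at -0.73 (adjusted p = 0.707 from limma), the importer gene Slc11a2 at -0.69 (adjusted p = 0.819) and Hfe, which regulates iron sensing, at 0.80 (adjusted p = 0.797).

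**Figure D3:**
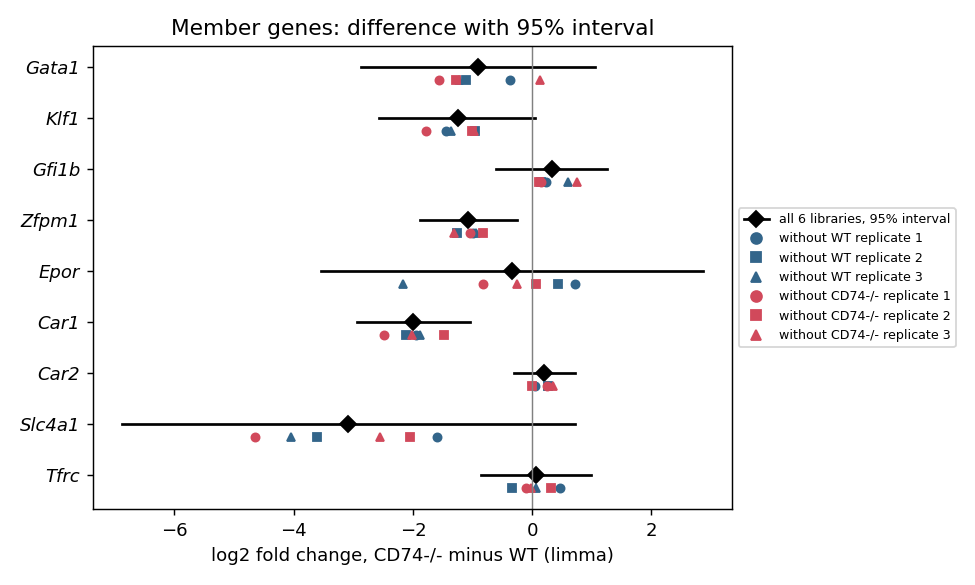
Log2 fold change (CD74-/- minus WT, limma) of the 9 genes with all 6 libraries, as diamonds with 95% intervals, and below each the value with 1 library left out (blue without a WT library, red without a CD74-/- library). Zfpm1, Car1, Klf1 and Slc4a1 stay on the negative side and Gfi1b on the positive side with any library left out, while Epor, Gata1, Car2 and Tfrc cross 0.

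Levels between genes were compared per kb of exon. Car2 led in WT with 10280 ± 1735 normalized counts per kb (SD, n = 3), followed by Car1 with 2965 ± 501. Below them came Gfi1b with 235, Zfpm1 with 144, Tfrc with 127, Klf1 with 108, Gata1 with 52.7, Epor with 29.6 and Slc4a1 with 20.7. Car2 and Car1 did not overlap each other or the rest in WT. Every Gfi1b value lay above every Zfpm1 value, but the lowest Gfi1b value, 175.8, lay below the highest Tfrc value, 200.5. Each neighbour from Zfpm1 down overlapped the next. In CD74-/- cells Car2 had 11930 ± 3189 per kb and Car1 865 ± 558, and Gfi1b followed with 307 ± 129. Then came Tfrc with 124, Zfpm1 with 70.05, Klf1 with 49.6, Gata1 with 35.7, Epor with 10.7 and Slc4a1 with 2.54. The lowest Car1 library, at 359.9 per kb, then lay below the highest Gfi1b library, at 388.

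Partners of these regulators were mostly close to 0. Of 27 genes of the erythroid transcription machinery, all were tested and none was called by limma, edgeR or DESeq2. At an unadjusted limma p under 0.05, 2 were lower and none higher, against 4.60% and 3.14% of all tested genes. There were 21 negative values and the median was -0.20. Tcf3, Ldb1 and Lyl1, whose products join TAL1 and LMO2 on DNA with GATA factors, were lower in every CD74-/- library, 3 of 27 genes against 7.47% of all tested genes. Tcf3 was at -0.85 (adjusted p = 0.583 from limma), Ldb1 at -0.66 (adjusted p = 0.630) and Lyl1 at -0.60 (adjusted p = 0.650). The repressor Zbtb7a was at -0.66 (adjusted p = 0.668) and the deacetylase gene Hdac2 at 0.54 (adjusted p = 0.650). With CD74-/- replicate 3 left out the median of the list was -0.36 and 15 of the 27 genes were lower in every CD74-/- library, against 18.8% of all genes tested in that fit. With CD74-/- replicate 2 left out the median was -0.06. Lmo2 had 16880 to 26406 and Myb 12350 to 21017 normalized counts over the 6 libraries, so that these stem cell factors were far more abundant than Gata1.

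Genes of the red cell membrane and skeleton had the lowest median of the 6 lists of red cell biology, without a call in limma. Of 25 listed, 24 were measured and 22 tested, with a median log2 fold change of -1.59 and 18 negative values. Of the 22, 7 had a CD74-/- mean under 10 normalized counts and passed the filter only through WT, so that counts and medians over the list are partly set by the filter. This holds for 4 (Ank1, Bcam, Kel and Sptb) of the 8 genes in which every CD74-/- library lay below every WT library, where 7.47% of all tested genes did. In 2 of the 22, every CD74-/- library lay above every WT library, where 5.35% of all tested genes did. At an unadjusted p under 0.05, limma had 8 lower and none higher, against 4.60% and 3.14% of all tested genes. With WT replicate 1 left out 19 genes of the list were tested, the median was -0.77 and 3 were lower at that level, where 2.7% of all genes were. With CD74-/- replicate 2 left out 5 were, where 3.7% of all genes were. Ermap, an erythroid membrane protein gene, had a log2 fold change of -3.55 (adjusted p = 0.563 from limma) and Xk, whose product is bound to the Kell antigen, had 0.40 (adjusted p = 0.736). DESeq2 called Kel and Rhd lower (adjusted p = 0.000656 and 0.0107), genes of the Kell and Rh blood group antigens. WT libraries held 79.2, 18.8 and 71.9 normalized counts of Kel and CD74-/- libraries held none. The WT mean of Kel was 18.8 times a floor of 3 reads per library, a bound on the means that leaves out the WT spread. Limma gave Kel an adjusted p of 0.337. With Kel at this bound the median of the list was still -1.59.

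Globin genes were 2 of the 7 genes that limma called lower. Of 22 listed, 18 were measured and 17 tested, with 2 called lower and none higher, against 0.0470% and 0.0403% of all tested genes. At an unadjusted limma p under 0.05, 5 were lower and 1 higher, against 4.60% and 3.14%. Every CD74-/- library lay below every WT library in 5 of the 17 and above in 1, against 7.47% and 5.35%. The median was -0.44, which was -0.05 without WT replicate 1 and 0.02 without CD74-/- replicate 3. Hbb-bs, an adult β-globin gene, fell from 13812, 6770.5 and 2953 normalized counts in WT to 440.2, 89.2 and 128 in CD74-/- libraries (log2 fold change -5.24, standard error 0.633, adjusted p = 0.0116 from limma). The α-globin gene Hba-a2 fell from 5301, 2508 and 995 to 116, 42.6 and 69.7 (log2 fold change -5.05, standard error 0.581, adjusted p = 0.00821 from limma). All WT libraries lay above all CD74-/- libraries for both, and their near-identical copies make the split of reads between globin genes uncertain. Without WT replicate 1 their adjusted p from limma was 0.106 and 0.0609, and without WT replicate 2 it was 0.105 and 0.0959. Alad, an early enzyme of heme synthesis, was at 727, 571 and 575 in WT, compared to 2374, 2137 and 765 in CD74-/- libraries (limma log2 fold change 1.34, adjusted p = 0.517), and DESeq2 called it higher (adjusted p = 0.0200).

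**Figure D4:**
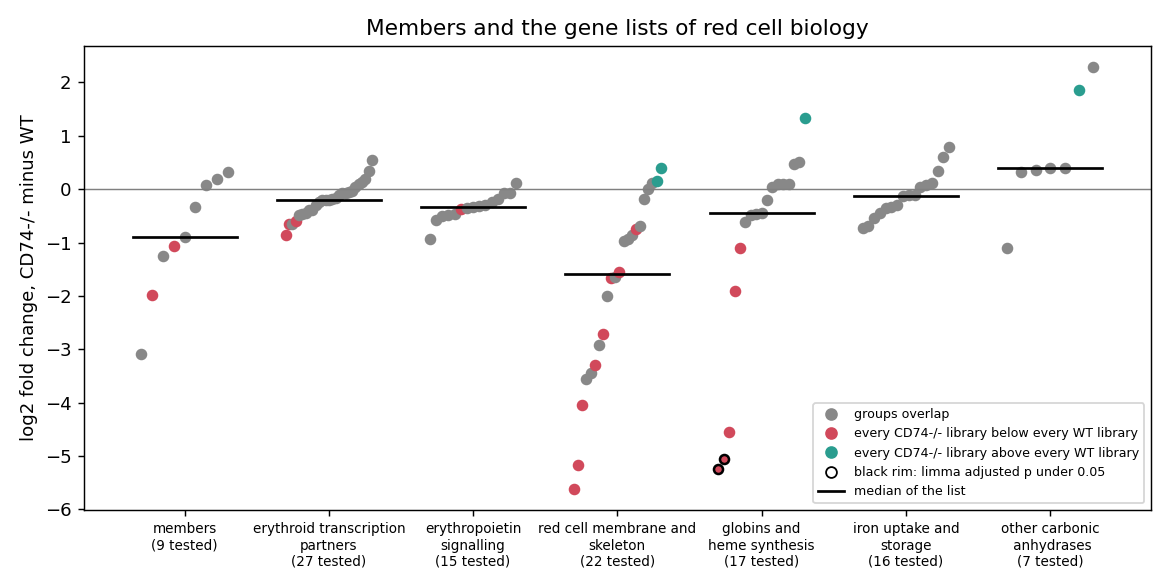
Log2 fold change (CD74-/- minus WT, limma) of each tested gene, by list, in order of value within a list; black bars are list medians, red and green mark genes whose genotypes do not overlap, and a black rim marks an adjusted p under 0.05. The membrane list, of which 7 genes passed the filter only through WT, has the lowest median plotted (-1.59), and the rimmed genes are Hbb-bs and Hba-a2.

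Markers of other cell types are given beside these values. The summed level of 10 B cell markers was 3109 to 10440 in WT and 1275 to 3163 in CD74-/-, with a median log2 fold change of -4.72. Cd79b, their most abundant, was at -0.14 (adjusted p = 0.942 from limma). The 11 neutrophil markers had a median of -2.75, all of them negative, and S100a9 was highest. The summed level of 9 measured markers of the macrophages of erythroid islands was 924 to 1523 in WT and 442 to 1084 in CD74-/-, with Spic highest (log2 fold change 0.41). Of these 9, 6 were negative and 3 positive, with a median log2 fold change of -1.29. For 15 measured megakaryocyte and platelet markers the sums overlapped, at 3771 to 6270 and 4517 to 8441, with Pf4 highest (log2 fold change 0.27). Mmrn1, which limma called higher (adjusted p = 6.2e-05), made up much of the CD74-/- sums, which were 3013 to 4501 without it, compared to 3768 to 6269 in WT. Of the 14 tested, 10 were negative, with a median of -0.74, and DESeq2 called Itgb3 lower (adjusted p = 0.0364). The 8 measured mast cell and basophil markers, led by Cpa3, had 371 to 2122 and 844 to 2181. Cpa3 had a log2 fold change of 1.28, while the other tested markers were negative. Of the 6 tested, 5 were negative, with a median of -1.74, and 3 had a CD74-/- mean under 10 and passed the filter only through WT. Without WT replicate 1, 3 were tested and their median was 0.31. Tubb1, Prss34, Cma1 and Fcer1a were at 0 in all CD74-/- libraries, and in WT they were highest in replicate 1 and at 0 or under 1 normalized count in replicate 3. The part of such cells in the values of the 9 genes was not tested. In sorted bulk RNA, fewer cells of a type and less RNA per cell cannot be told apart.

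Next, the pattern over the 6 libraries was compared between genes as Pearson's r of log2(normalized count + 1), given as a description, since the points share genotype and library. Among the 9 genes, Car1 went with Zfpm1 (r = 0.87) and Klf1 (r = 0.83), whereas Car2 ran against Tfrc (r = -0.71). Gata1 and its cofactor gene Zfpm1 had r = 0.05. Of 11623 genes whose mean was 50 normalized counts or more, those most like the mean of the 9 standardized genes were Ifi30 and Ngp (r = 0.988 each), Lcn2 (0.985), and Lyz2 and Aoah (0.984 each), and 157 genes had r over 0.9. For Slc4a1 alone they were G0s2 (0.994), Mgat4b, Ubap2, Hist1h1b and Rpa1 (0.986), among 166 genes over 0.9. For Gata1 they were N4bp1 (0.994), Fcgr2b, Lsm11, Vps53 and Tpx2 (0.990), among 183.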

How the data were processed

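HSCs sorted as CD34-/LSK from untreated WT and CD74-/- mice, 3 libraries each, were profiled with SMART-Seq v4, which does not keep the strand, as single-end reads on a HiSeq2500. The authors trimmed reads with cutadapt, mapped them to GRCm38 with STAR (2.4.2a in the submitters' processing notes) and Ensembl annotation, quantified genes with htseq-count and scaled the counts by DESeq2 size factors. The deposited signal is this normalized count. Dividing each library by 1 step of its own gave whole numbers for all 101059 values above 0, within 0.006 normalized counts, and so the reads. Columns of the authors' own tests (fold changes and p values) were not used.

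The genotypes were compared with limma 3.58.1 with trend on log2(normalized count + 1) for genes with a mean of at least 10, with Benjamini-Hochberg adjustment over all 14892. A fold change on this scale understates low genes. Two-sided exact permutation tests were added for the 9 genes. Alternatives were pseudocounts, filters, a replicate block, each library left out, no trend, edgeR 4.0.16, DESeq2 1.42.0, limma-voom and TMM scaling, run in R 4.3.3. Exon lengths came from GENCODE vM21, and only the 250 bases before each RefSeq start were searched for motifs. Reads carry no molecular identifiers, so intervals cover counting error only where they rest on counts.

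The 9 genes and the gene lists were chosen with earlier results of these data known. Named are all 9, called genes of each list, its 2 lowest and 1 highest log2 fold changes among genes with a mean of at least 50, the most abundant marker of each cell type and the 5 genes most like a pattern. A gene that this rule names in the membrane list is not reported here. Ldb1, Lyl1, Lmo2, Myb, Tfr2, Kel, Rhd, Ank1, Bcam, Sptb, the markers named beside the most abundant and the ratio of Car1 to Car2 fall outside this and were chosen after their values were seen.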

Additional observations from a re-analysis of the deposited data

How the results depend on the processing

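Of 143 values of the 9 genes under 16 alternatives, 131 kept direction and side of the threshold, 10 turned sign and 2 passed it, and the cause was not tested. The fit with a mean of at least 50 gives none for Epor. DESeq2 called 88 genes lower and 49 higher, with 1 of the 9 (Car1, -1.78), 2 membrane genes and 4 globin and heme genes lower and 1 higher, and put Tfrc at -0.04. Tfrc was at -0.02 in edgeR, which called 1 globin gene. Limma-voom called 3 lower and 3 higher and 0 globin genes. Limma without trend called 12 genes higher and 0 globin genes. With 1 library left out, genes lower ranged from 1 to 34, genes higher from 5 to 23, globin and heme genes lower from 0 to 3 and higher from 0 to 1, and the 9 genes lower from 0 to 1. Leaving out WT replicate 1 gave 1 lower gene, WT replicate 2 gave 2, WT replicate 3 gave 4, CD74-/- replicate 1 gave 34 and CD74-/- replicate 3 gave 12, with 23 higher. Log2 fold changes then ranged from -2.48 to -1.47 for Car1, -2.16 to 0.72 for Epor, -0.34 to 0.47 for Tfrc, -0.01 to 0.35 for Car2 and -1.57 to 0.13 for Gata1. Signs turned for Epor without WT replicate 1 (0.72), WT replicate 2 (0.44) or CD74-/- replicate 2 (0.07), for Tfrc without WT replicate 2 (-0.34), CD74-/- replicate 1 (-0.10) or 3 (-0.02), for Car2 without CD74-/- replicate 2 (-0.01) and for Gata1 without CD74-/- replicate 3 (0.13).

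Same-numbered libraries had r = 0.116, 0.072 and 0.019, not all over 0.1, and the libraries were left unpaired. As a hint from the data, 5 of 6 correlated best with their own number, the exception being WT replicate 3. With the replicate block 21 genes were lower and 6 higher. Single libraries hold 1 read of Epor and 0 or 1 read of Slc4a1.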
